A study of Oryza sativa with 6 samples.

Results

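AK062911 is 1 of 21495 rice probes on an oligonucleotide array of 2 colours, and its description on the array is root-specific protein RCc2 of rice. It was taken by its name, and it had been chosen by its measured signal on these arrays, which was high in roots and lower under phosphorus (P) deficiency in each of the lines studied. Its levels under each condition are therefore given as a description, without a test. Of the other probes on the array, 4 are also described as RCc2 and 4 as RCc3. The probe is printed as 1 spot on each of 6 arrays, so that 12 channels measured it.

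Roots of Nipponbare, a japonica rice cultivar, were compared with roots of 6-4, a near-isogenic line carrying inserts from the indica cultivar Kasalath. Plants were grown in 12 L pots of an Andosol, a volcanic soil, and RNA was taken from 1.6 g of root. Control roots came from soil with a high P content, and the other roots from plants under P deficiency. Each array held both lines of a condition in opposite dyes, with 3 arrays of control roots and 3 of P-deficient roots, and the series describes these as biological replicates. The line 6-4 is a single line, so that a line effect is that of all its inserts together, and the plant age and the length of the deficiency are not given in the sources used here.

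RCc2 and RCc3 were described as a pair of rice cDNAs whose transcripts accumulate in roots. They encode small proteins with a signal for secretion, a part rich in proline and a part with conserved cysteines that is related to lipid transfer proteins. Such hybrid proline-rich proteins are counted among the proteins of the plant cell wall, and the promoter of RCc3 is widely used to drive transgenes in rice roots. P deficiency is known to alter root growth and branching in rice and to change the expression of many root genes.

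The spot of AK062911 was well above background in 12 of 12 channels, at 36.7 to 596 times its local background. It was not flagged on any array and held no saturated pixel. Its pixels varied by 3.64% to 8.87% (coefficient of variation) within a channel, over 58 to 63 pixels. The position of the probe on the transcript and in the genome is not given here. Signal from transcripts of close copies of the gene that bind the same spot cannot be told apart from that of RCc2 itself.

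On all rice probes, 89.8% to 99.5% of spots were well above background in a channel. The negative control spots of replicate 2 stood apart in Cy3, at 5.06 times local background on the control array and 4.80 times on the P-deficient array, against 1.19 to 2.86 times on the other arrays. As markers of root, 8 or 9 of the 9 RCc2 and RCc3 probes were well above background in every channel, AK062911 among them. So were 3 of 3 nicotianamine synthase probes. These counts are near the share of all rice probes and do not tell root from other tissue. Probes for green tissue were not at 0, however, since 34 to 40 of 42 were well above background in a channel. Of these, 36 passed the filter on dim probes, with a median log2 response to P deficiency of 0.05, a range from -0.32 to 1.77, and 0 past an adjusted p of 0.05 in limma's test (4 at an unadjusted p under that value), where 1.51% of all 20531 probes tested passed. Their mean log2 level lay between 7.98 and 8.25 on control arrays and between 8.18 and 8.34 on P-deficient arrays. Their part in the results was not tested. Nothing is read from the 4 green probes at an unadjusted p, since the share of all probes there is not given.

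AK062911 gave a strong signal in control roots of both lines and a weaker one in P-deficient roots of both. In Nipponbare the mean signals before normalization were 22471, 8699 and 40991 intensity units in control replicates 1 to 3. The P-deficient roots of the same line gave 2605, 6248 and 3382 units. In 6-4 the control signals were 9662, 39306 and 15581 units, and the P-deficient ones 8745, 3814 and 11429 units. These values mix the dyes, since Nipponbare was in Cy5 on control replicates 1 and 3 and on P-deficient replicate 2, and in Cy3 on the other arrays. Before normalization the P-deficient signals lay below the control signals in Nipponbare without overlap, and in 6-4 the highest P-deficient signal, in Cy5, passed the 6-4 signal of 9662 units that was read in Cy3.

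After normalization, the log2 level of AK062911 in Nipponbare was 14.01, 13.63 and 14.42 on the control arrays and 12.66, 12.03 and 12.04 on the P-deficient arrays. The levels in 6-4 were 14.30, 14.45 and 14.39 on the control arrays and 12.50, 12.67 and 12.25 on the P-deficient arrays. Every control channel stood above every P-deficient channel. The lowest control value, Nipponbare of replicate 2 read in Cy3, was 0.95 above the highest P-deficient value on the log2 scale. Within Nipponbare this distance was 0.97, and within 6-4 it was 1.63. Of 20054 probes tested in single channels, 2.88% lay lower under P deficiency in both lines without overlap, a share from which nothing is read here because AK062911 was chosen for this fall.

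**Figure D1:**
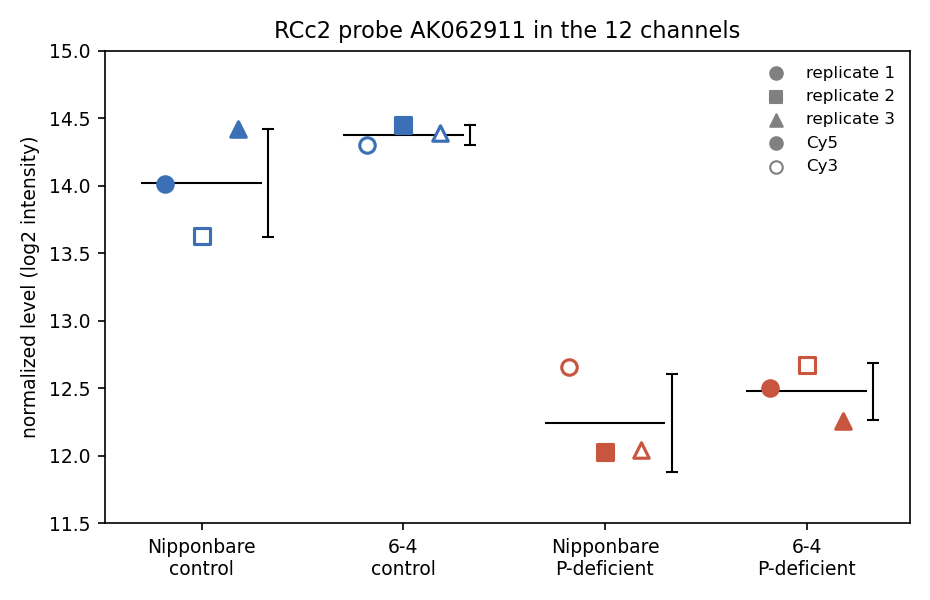
Normalized log2 intensity of AK062911 (vertical axis) in each of the 12 channels, by line and condition, with the replicate given by the marker, Cy5 channels filled and Cy3 channels open. Lines show group means, bars show the SD of 3 arrays, and all 6 control values lie above all 6 P-deficient values.

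Control levels of AK062911 were more spread in Nipponbare than in 6-4, with 14.02 ± 0.40 (SD, n = 3) against 14.38 ± 0.07 on the log2 scale. The P-deficient levels were 12.24 ± 0.36 in Nipponbare and 12.48 ± 0.21 in 6-4. Ordered by level, the groups ran from control 6-4 through control Nipponbare and P-deficient 6-4 to P-deficient Nipponbare. Neighbouring groups of the same condition overlapped, whereas control and P-deficient groups did not. With the dye as a term of the fit the levels of these groups were 14.38, 14.02, 12.47 and 12.25, each with an SE of 0.25.

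As a description, the signal of AK062911 was 3.58-fold lower under P deficiency when both lines were averaged, a log2 difference of -1.84 (SE 0.17). Array means of both channels were 14.16, 14.04 and 14.40 in control roots and 12.58, 12.35 and 12.15 in P-deficient roots, with 1.46 between the nearest arrays of the 2 conditions. The difference was -1.77 (SE 0.35) in Nipponbare, a 3.42-fold lower signal, and -1.91 (SE 0.35) in 6-4, a 3.76-fold lower signal. In whole roots, fewer cells that hold a transcript and less of it per cell cannot be told apart. The arrays were read with 2 versions of the scanner software, 7.1 for replicates 1 and 2 and 8.1 for replicate 3 per the file headers, whereas 8.1 is named for P-deficient replicate 2 in the submitters' processing notes. The log2 difference was -1.63 within version 7.1 and -2.26 within version 8.1, where each condition had 1 array. Grouped by the processing notes instead, it was -1.52 and -2.16. By the headers, within version 8.1 it was -2.38 in Nipponbare and -2.13 in 6-4, and within version 7.1 it was -1.48 and -1.79. With replicates 1 and 3 alone, which leaves out the arrays with bright negative controls, it was -1.92.

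The difference in AK062911 between the lines was not larger than the spread of the arrays. The log2 ratio of 6-4 over Nipponbare was 0.29, 0.82 and -0.03 on control replicates 1 to 3 and -0.16, 0.64 and 0.21 on P-deficient replicates 1 to 3. It was above 0 on 4 of 6 arrays, and the arrays of replicate 2 gave the highest ratio of each condition. Their negative controls were bright in Cy3, which held Nipponbare on the control array and 6-4 on the P-deficient array. Whether this had a part in the ratios was not tested. The mean over both conditions was 0.30, a 1.23-fold higher signal in 6-4, with an SE of 0.14 and a 95% interval from -0.04 to 0.63 (limma, adjusted p = 0.336). In that comparison 0.926% of 20528 tested probes passed the threshold. The interval spans fold values from 0.975 to 1.55, so that differences within it could not be resolved with 6 arrays. A different amount of transcript and a different binding of a Kasalath allele to the probe cannot be told apart in such a ratio.

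**Figure D2:**
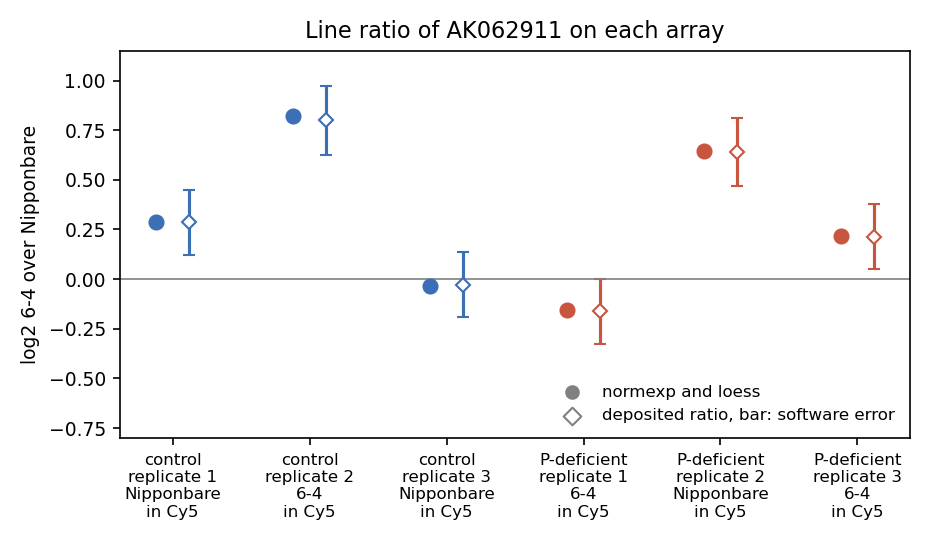
Log2 ratio of 6-4 over Nipponbare for AK062911 (vertical axis) on each of the 6 arrays, from the normalized signals (filled circles) and as deposited (open diamonds, with the error given by the scanner software). Ratios run from -0.16 to 0.82, and the highest of each condition is that of replicate 2.

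With P supplied the log2 line ratio of AK062911 was 0.37 (SE 0.20, 95% interval from -0.12 to 0.85, limma adjusted p = 0.279), where 12.9% of all probes tested passed. Under P deficiency it was 0.23 (SE 0.20, interval from -0.26 to 0.71, limma adjusted p = 0.482), where 8.94% passed. Without control replicate 2 the fitted ratio with P supplied was -0.18, and without P-deficient replicate 2 the fitted ratio under deficiency was -0.32. The arrays then left in that condition, at 0.29 and -0.03 or at -0.16 and 0.21, held the lines in the same dyes. The dye term of these fits rested on the other condition alone, so that they do not settle the direction. Within software version 7.1 the ratios were 0.56 and 0.24, and with both conditions averaged the ratio there was 0.40 (limma adjusted p = 0.227).

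The lines were also compared in their response of AK062911 to P deficiency, which is the difference of the line ratio between conditions. The fall in 6-4 was larger by a log2 value of -0.14 (SE 0.30), with a 95% interval from -0.84 to 0.57 (limma, adjusted p = 0.789). In this comparison 19.7% of probes passed. The interval is wide, and a response that differs between the lines by up to its bounds could not be resolved here. This difference turned to 0.52 without control replicate 2 and was -0.79 without P-deficient replicate 2 (limma adjusted p = 0.291 and 0.116). In both fits the dye term rested on the other condition alone. The deposited log10 ratios, put on the log2 scale, were 0.29, 0.80 and -0.03 for control and -0.16, 0.64 and 0.21 for P-deficient replicates. The scanner software gave them errors of 0.16 to 0.17, smaller than the spread of the arrays within a condition (SD 0.43 and 0.40 of the normalized ratios).

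Among the 4 other probes described as RCc2, 3 were tested and 1, AK063090, passed the test of the response to P deficiency in the mean of both lines. Its log2 level was 9.37, 9.62 and 9.83 on control arrays and 8.79, 8.89 and 8.56 on P-deficient arrays, so that the conditions did not overlap. It fell by 0.86 on the log2 scale (SE 0.16), a 1.81-fold lower signal (limma, adjusted p = 0.0422; 0.0193 when the replicate number was blocked). Of all 20531 probes tested, 0.477% passed in this direction, and of 20054 probes 9.24% had every P-deficient array below every control array and 7.39% had every one above. The call was lost when any 1 array was left out, with adjusted p between 0.0193 and 0.287 over 15 settings, 5 of which kept it.

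AK062848, also described as RCc2, lay at 8.70, 8.87 and 8.04 in control roots and 8.93, 8.57 and 8.24 in P-deficient roots on the log2 scale. These values overlap, and the difference was 0.04 (SE 0.25; limma, adjusted p = 0.991). AK108560 lay at 6.81, 6.98 and 6.72 in control and 6.80, 6.66 and 6.59 in P-deficient roots. Its values overlap as well, with a difference of -0.15 (SE 0.14; limma, adjusted p = 0.817). AK102086 was well above background in 4 of 12 channels and was not tested. Whether the RCc2 cDNAs come from 1 gene or several is not given in the sources used here.

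Of the 4 probes described as RCc3, the other root-specific cDNA of this pair, none passed in the mean of both lines. The log2 level of AK063684 was 13.10, 13.03 and 13.01 in control roots and 12.33, 12.45 and 12.45 in P-deficient roots, without overlap. The difference was -0.63 (SE 0.13; limma, adjusted p = 0.0503), which passed with the replicate block (adjusted p = 0.0224). With that block 854 of all probes passed in either direction, against 309 without it. AK063684 passed in 3 of 15 settings, with limma adjusted p from 0.0189 to 0.427. It did not pass when any 1 array was left out. The difference of AK063684 was -0.63 in Nipponbare and -0.64 in 6-4. AK062654 was at -0.32, AK109149 at -0.17 and AK062381 at -0.15, with limma adjusted p of 0.558, 0.793 and 0.920 and overlapping conditions. AK109149 was saturated in 1 channel. That AK062911 differed from any of these probes in its response was not tested.

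**Figure D3:**
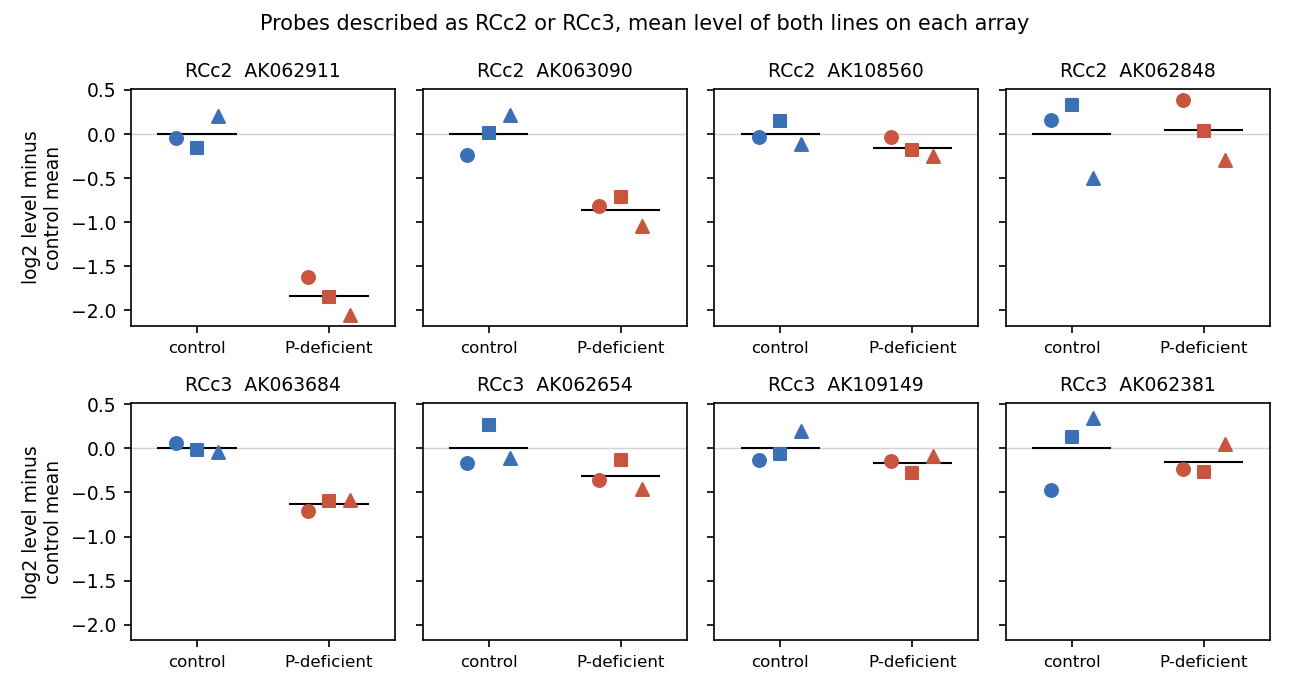
Mean log2 level of both lines on each array, minus the mean of the control arrays (vertical axis), for the 8 measured probes described as RCc2 (top row) or RCc3 (bottom row), with the replicate given by the marker and lines at group means. Control and P-deficient arrays do not overlap for AK062911, AK063090 and AK063684, and they overlap for the other 5 probes.

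Over the 12 channels, with the mean of each dye taken away, the pattern of AK062911 correlated with AK063684 at a Pearson r of 0.853 and with AK063090 at 0.821. The remaining probes of RCc2 and RCc3 stood at 0.618 for AK108560, 0.526 for AK062654, 0.518 for AK109149, 0.195 for AK062381 and -0.106 for AK062848. The 12 channels share arrays in pairs and hold 4 groups, so these values are a description. The fall for which AK062911 was chosen is part of the pattern compared.

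Unlike AK062911, the RCc2 probe AK063090 passed the test of the mean line effect. Its log2 ratio of 6-4 over Nipponbare was 0.67, -0.19 and 0.66 on the control arrays and 0.44, 1.48 and 0.50 on the P-deficient arrays, above 0 on 5 of 6. With a dye term in the fit the mean was 0.59 (SE 0.05), a 1.51-fold higher signal in 6-4 (limma, adjusted p = 0.00670). Of all probes, 0.263% passed in this direction. AK063090 passed in 9 of 15 settings. The highest limma adjusted p, 0.391, came with no dye term. It also did not pass without control replicate 2 or without any 1 of the P-deficient replicates (0.0552 to 0.0728). With P supplied the ratio fitted with the dye term was 0.23 (limma, adjusted p = 0.0775). Under deficiency it was 0.96, a 1.95-fold higher signal (limma, adjusted p = 0.00460), where 4.32% of probes passed in this direction. With no dye term the ratio under deficiency was 0.81 (limma, adjusted p = 0.758). The call under deficiency was lost without any 1 of the P-deficient replicates, with fitted ratios of 0.89 to 0.99. P-deficient replicates 1 and 3 themselves gave 0.44 and 0.50. The other tested RCc2 and RCc3 probes did not pass in the mean line effect, with limma adjusted p between 0.201 and 0.594. Under deficiency AK062654 passed too, at 0.66 with the dye term (SE 0.13, limma adjusted p = 0.0353). With no dye term its ratio was 0.48 (limma, adjusted p = 0.808). Without P-deficient replicate 2 the fit gave 0.33 (adjusted p = 0.356), with its dye term from the control arrays alone. The P-deficient arrays left had ratios of -0.07 and 0.02. Whether the line effects of AK063090 and AK062911 differ from each other was not tested.

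With a dye term in the fit, the response of AK063090 to P deficiency differed between the lines by a log2 value of 0.74 (SE 0.10; limma, adjusted p = 0.00751). The call was lost without control replicate 2 (adjusted p = 0.0857) or P-deficient replicate 2 (0.0775). With no dye term the difference was 0.43 (limma, adjusted p = 0.664). Replicate 2 alone had the dyes swapped within each condition, so dye and replicate 2 cannot be told apart there. On replicates 1 and 3 the line ratios were lower under deficiency, at 0.44 and 0.50 against 0.67 and 0.66. AK063090 fell by 1.23 (SE 0.16) in Nipponbare (limma on single channels, adjusted p = 0.00427), where 0.259% of probes fell, and stood at -0.49 (SE 0.16) in 6-4 (adjusted p = 0.180), where 0.304% fell. For the RCc3 probe AK062654 the lines differed by 0.77 (SE 0.19; limma, adjusted p = 0.0364). Its response was -0.70 in Nipponbare and 0.07 in 6-4, and neither passed (limma on single channels, adjusted p = 0.209 and 0.935). Its ratios were 0.46, -0.40 and 0.16 on control and -0.07, 1.47 and 0.02 on P-deficient arrays. Without P-deficient replicate 2, which holds the value of 1.47, the fitted difference was 0.38 (adjusted p = 0.322), with the dye term from the control arrays alone. The share of probes higher in this comparison was 9.39%, and all calls in it were lost over the whole array without the dye term, without background subtraction or without control replicate 2.

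Among other probes matched to RCc or proline-rich proteins by words in their descriptions, 1 passed the test of the response to P deficiency. Such a match does not show that a probe is of the same protein family as RCc2. In the list of RCc and proline-rich proteins, cell wall proteins or proteins rich in proline by their descriptions, 28 of 30 probes other than AK062911 were measured. Of these, 1 fell (AK063090) and 0 rose in limma's test, where 0.477% of all probes tested fell and 1.03% rose. At an unadjusted p under 0.05 there were 5, from which nothing is read, since the share of all probes there is not given. The median log2 response was -0.11, against -0.02 over all probes tested. AK060752, a putative proline-rich protein, was at -0.55 (adjusted p = 0.139; 0.0487 with the block). AK103322, with the same description, was at -0.21. AK106976, another putative proline-rich protein, was at 0.55 (adjusted p = 0.167; 0.0388 with the block). AK100217, a repetitive proline-rich protein of rice, was at 0.51, and AK099480, described from a maize proline-rich protein, at 0.25.

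Lipid transfer proteins, small secreted proteins that bind lipids and share the cysteine pattern of RCc2, had 21 of 23 probes measured and 0 past limma's test (2 at an unadjusted p under 0.05), where 1.51% of all probes passed in either direction. Their median response was -0.08. The barley-named probes AK062463, AK064045 and AK062667 were at -0.63, -0.48 and -0.33, and the rice probe AK060340 was at 0.31. Only AK062463 of these passed with the replicate block (limma adjusted p = 0.268, and 0.0377 with it). Structural wall proteins, which are extensins, glycine-rich and arabinogalactan proteins, had 26 of 29 probes measured, 0 past the test (3 at an unadjusted p under 0.05), beside the same share of 1.51% of all probes, and a median of -0.06. The glycine-rich proteins AK063328 (CAI1) and AK064065 were at -0.59 and -0.56 and AK063947 was at 0.40, while the extensin-like RiP-5 (AK100880) was at -0.27. Of these, AK063328 passed with the block (limma adjusted p = 0.162, and 0.0376 with it). In the mean line effect, AK063090 was the only call among the 75 measured probes of the 3 lists, beside 0.926% of all probes. The list medians were 0.05, 0.03 and -0.04 (8, 2 and 7 probes at an unadjusted p under 0.05). The share of all probes at that unadjusted value is not given here, so nothing is read from these unadjusted counts.

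**Figure D4:**
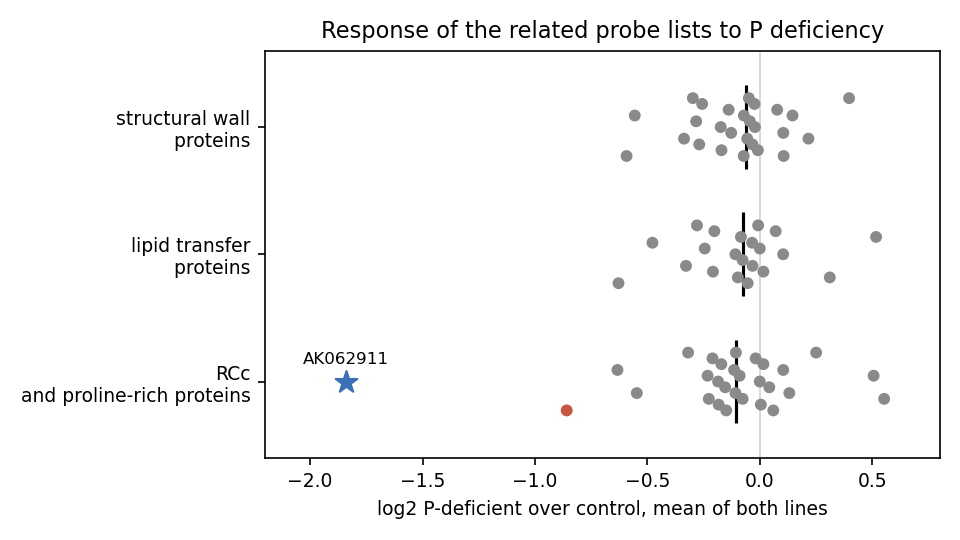
Log2 response to P deficiency averaged over both lines (horizontal axis) for each measured probe of the 3 related lists, with list medians as black lines, the called probe AK063090 in red and AK062911 as a star at -1.84. The other probes lie between -0.86 and 0.55.

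Of 8337 described probes compared over the 12 channels, the one most like AK062911 was AK059781, germin-like protein 2, with a Pearson r of 0.987. Germin-like proteins are secreted proteins of the cell wall and apoplast. Its log2 level was 13.14, 13.06 and 13.14 in control roots and 11.61, 11.28 and 11.06 in P-deficient roots, without overlap. The difference was -1.79 (SE 0.16), close to that of AK062911, and it is a description because the probe was taken for its likeness. It was -1.84 in Nipponbare and -1.75 in 6-4. The median r over the described probes was 0.05, and 0.552% of them had an r above 0.9. Here too the pattern compared holds the fall for which AK062911 was chosen.

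Next to it in likeness to AK062911 stood AK072514, described from an Arabidopsis adenosine deaminase (r 0.963), and AK071852, a rice calmodulin, the small calcium-binding signalling protein (r 0.955). They were followed by AK067238, a cyclin-dependent kinase CDC2C (r 0.954), and AK072228, described from the tobacco aspartic protease CND41 (r 0.950). AK073131, a binding protein of a viral movement protein in tobacco, had an r of 0.948. AK105642, an alanine:glyoxylate aminotransferase, had an r of 0.945, and AK071732, a sucrose-phosphate synthase, the enzyme that makes sucrose-phosphate, had an r of 0.944. Their log2 responses to P deficiency were smaller than that of AK062911, running from -1.10 for AK105642 and -1.02 for AK072228 to -0.37 for AK071852 and -0.32 for AK073131. By rank correlation 3 of the 8 probes were the same, and with the dye means kept 6 of 8 were.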

How the data were processed

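Labelled cRNA was made from root RNA by linear amplification, per the labels' protocols. The authors read the intensity of each spot and its local background in both dyes with Agilent Feature Extraction 7.1 or 8.1, per the file headers. The deposited log10 ratios of Cy5 over Cy3 had background subtracted and dyes normalized in this software, per the file headers. The deposited series table equals them, turned to 6-4 over Nipponbare, for 22575 of 22575 spots within 0.005, with column medians from -0.00424 to 0.00476.

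With limma 3.58.1 in R 4.3.3, signals were corrected by normexp (offset 50), normalized by loess within arrays (control spots and 569 flagged spots at weight 0) and by Aquantile between arrays. The 20531 probes kept exceeded background clearly (the software's well-above-background mark) on each of the 3 arrays of at least 1 combination of line and condition. Line ratios were fitted on all 6 arrays with 1 coefficient per condition and 1 for dye, mean levels by condition, and single channels by group and dye with lmscFit (intraspot correlation 0.794 from 2000 probes). Adjusted p is Benjamini-Hochberg over all probes tested, with a threshold of 0.05. The fits were tested on simulated data.

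AK062911 and all lists were chosen with earlier results of these data known. Lists were matched by words in descriptions. Named probes are AK062911, the other RCc2 and RCc3 probes, the 8 with the smallest p in the response to P from the list of RCc and proline-rich proteins, the 4 such from each other list, and the 8 described probes most like AK062911. Names that only give an Arabidopsis locus were left out of the last group after values were seen. No probe accession matched the reference gene table, so descriptions are those of the array, and no positions or sequences are given.

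The labels number the replicates alike in both conditions. Same-numbered arrays deviated together in level (correlations over probes 0.402, 0.314 and 0.660), so blocked values stand beside responses where they change a call. Over all probes the block raised the calls of the response to P from 309 to 854, so a blocked call is not particular to a named probe. Their line ratios deviated against each other (-0.604, -0.751 and -0.371). The alternatives were other background corrections, normalizations and filters, the block, the software version, no dye term, and leaving out each array. The number of arrays limits the precision.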

Additional observations from a re-analysis of the deposited data

Results flagged for a closer look

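For 3 of the probes named above, the response to P deficiency differed between 6-4 and Nipponbare by limma's test of the difference itself. That fit held a dye term, and within a condition dye and replicate 2 cannot be told apart. Over the whole lists, this test called 3 higher and 0 lower of 28 RCc and proline-rich probes, 3 and 6 of 21 lipid transfer probes and 1 and 5 of 26 structural wall probes, while 19.7% of all probes were called. The RCc3 probe AK062654 differed by 0.77 on the log2 scale, and the RCc2 probe AK063090 by 0.74, with the value in 6-4 above that in Nipponbare for both. The extensin-like probe AK100880 (RiP-5) differed by -0.72 (SE 0.12; limma, adjusted p = 0.0109), with 0.09 in Nipponbare and -0.63 in 6-4. Its line ratios were 0.04, 0.84 and 0.05 on control and -0.06, -0.49 and -0.08 on P-deficient arrays, so that replicate 2 held the extreme value of each condition. Over 15 settings it ran from -1.44 with the authors' processed signals to -0.25 without background subtraction (adjusted p 0.0234 and 0.193), and the highest adjusted p was 0.564, with no dye term. Without control replicate 2 it was -0.53 (adjusted p = 0.144) and without P-deficient replicate 3 it was -0.69 (adjusted p = 0.0509). The differences of AK062654, AK063090 and AK100880 were called in 5, 11 and 10 of the 15 settings.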

How the results depend on the processing

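The line effects of AK062911 passed the threshold in none of the alternatives. Its response to P deficiency stayed below 0 in all of them, from which nothing is read because the probe was chosen for this fall. The replicate block left the line effects at 0.30, 0.37 and 0.23 (mean, control, P-deficient; limma adjusted p 0.203, 0.133 and 0.340) and the response to P at -1.84. Leaving out 1 array at a time gave 0.08 to 0.41 for the mean line effect, -0.18 to 0.56 for control, -0.32 to 0.43 for P-deficient roots and -0.79 to 0.52 for their difference. Negative line effects came without control replicate 2 (-0.18, control) and without P-deficient replicate 2 (-0.32, P-deficient), and the difference was above 0 without control replicate 2 (0.52) and without P-deficient replicate 1 (0.04). Without replicate 2 of a condition, the dye term rested on the other condition alone. The response to P ranged from -1.95 to -1.73, in Nipponbare from -2.18 to -1.44 and in 6-4 from -2.23 to -1.66. It was -1.63 within software version 7.1 and -2.26 within 8.1, there -2.38 in Nipponbare and -2.13 in 6-4. With versions taken from the processing notes, chosen after seeing the data, it was -1.52 within 7.1 and -2.16 within 8.1. Calls of the related lists for P were 6 with the replicate block, 3 with software version as a batch term and 2 with no background subtraction. Over all probes these settings called 854, 745 and 341, against 309 in the main fit. The lists had 0 calls with the authors' processed signals, within version 7.1, with median scaling and with replicates 1 and 3 alone (chosen after seeing the data). Over all probes those settings called 83, 232, 134 and 15. Leaving out any array gave the lists 0 to 0, beside 91 to 224 over all probes. The lists' line calls were 3 within version 7.1, 0 with processed signals and with no dye term, and 0 to 5 on leaving out an array. Over all probes the mean line effect there had 233, 19, 40 and 21 to 840 calls. Rank correlation kept 3 of the 8 most alike probes. Over all probes, 190 calls of the mean line effect became 19 to 840 and 309 of the response to P became 15 to 854. The 2653, 1835 and 4034 calls for control, P-deficient roots and their difference became 2 to 4241, 1 to 4477 and 0 to 6149. The causes were not tested.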
